A study of Rattus norvegicus with 18 samples.

Results

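Glucocorticoid responsive genes were followed in rat lungs after clamping of the left hilum and reperfusion. The group was made up of 8 genes, Fkbp5, Klf9, Tsc22d3, Sgk1, Nr3c1, Glul, Anxa1 and Hsd11b1, taken by their symbol in the platform annotation. All 8 were on the array, with 13 of its 15923 probe sets, of which 11 passed the filter on low signal (10533 of all probe sets, covering 7728 genes). Each gene is given by its passing probe set of highest mean, and the others are given beside it.

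Lungs came from male Sprague-Dawley rats, 1 lung per 1-colour Affymetrix rat 230A array, 18 in all. Operated rats were anaesthetised, ventilated through a tracheotomy and opened by left thoracotomy, and the left hilum was clamped for 2 h with the lung warm and in place. The clamped left lungs were collected after 30 min (n = 3) or 3 h (n = 3) of reperfusion, and the unclamped right lungs of those rats at the same times (n = 3 and n = 3). The 6 control lungs came from 6 rats and were retrieved directly after anaesthesia and sacrifice. The controls had neither thoracotomy nor hours of ventilation, so effects of surgery, anaesthesia time, ventilation and the clamp in a comparison with control cannot be told apart. All clamped lungs were left lungs, so clamp and side cannot be told apart either. The rats' ages, the hour of collection, the side of the control lungs and the day of each array are not given in the labels, and no plasma hormone level or steroid treatment is named in them.

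Glucocorticoids are adrenal steroid hormones, chiefly corticosterone in the rat, that are released in stress. They enter cells and bind the glucocorticoid receptor, the product of Nr3c1, which waits in the cytoplasm in a complex with the chaperone Hsp90 and then moves to the nucleus to raise or lower the transcription of target genes. In lung they are known for driving late fetal maturation, for salt and water transport across the epithelium, and for restraint of inflammation. Hsd11b1 makes the active hormone inside cells from an inactive form. Fkbp5, Klf9, Tsc22d3, Sgk1, Glul and Anxa1 are genes that the hormone is known to induce in various tissues.

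Because 7 of the 8 genes are known targets or the receptor itself, the stretches around their transcription starts were read for the receptor's binding motif. RefSeq promoters (build GRCr8, 250 bases before to 50 after the start) were matched by symbol for 7 members, with 13 start sites among them. Hsd11b1 was not matched. For Fkbp5, Sgk1, Nr3c1 and Anxa1 every window lay inside the annotated gene, so the outermost 5′ end of these genes was not read. The palindromic motif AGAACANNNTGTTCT has 12 fixed letters, and the best stretch of any of the 13 windows matched 6 to 8 of them. Of 33469 rat promoters of the same length, 1.87% held a stretch with at least 10 letters. The half-site AGAACA, read on both strands and contained in the palindrome, was in 0 of the 13 windows and in 20.7% of all promoters. The GC box GGGCGG, also read on both strands, was in 9 of the 13 and in 33.1% of all. In human and mouse the known receptor-bound elements of the Fkbp5 gene lie in introns, outside such a window. The windows of Fkbp5 and Klf9, the genes with the largest rises below, are shown 5′ to 3′ on the strand of the gene, with GC boxes in capitals. Fkbp5 lies at chr20:6458931-6577227 and the window shown is chr20:6543506-6543805 on the minus strand. Klf9 lies at chr1:230126646-230151641 and its window is chr1:230126396-230126695 on the plus strand. The Fkbp5 window held 4 GC boxes in 77.0% G and C, and the Klf9 window held none in 65.3%.
Fkbp5: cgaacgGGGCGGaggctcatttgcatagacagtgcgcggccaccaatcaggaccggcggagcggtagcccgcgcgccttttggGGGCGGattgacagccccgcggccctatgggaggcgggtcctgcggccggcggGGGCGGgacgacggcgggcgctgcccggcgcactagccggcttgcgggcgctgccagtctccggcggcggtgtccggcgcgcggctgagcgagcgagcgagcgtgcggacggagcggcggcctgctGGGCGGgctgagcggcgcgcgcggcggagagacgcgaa
Klf9: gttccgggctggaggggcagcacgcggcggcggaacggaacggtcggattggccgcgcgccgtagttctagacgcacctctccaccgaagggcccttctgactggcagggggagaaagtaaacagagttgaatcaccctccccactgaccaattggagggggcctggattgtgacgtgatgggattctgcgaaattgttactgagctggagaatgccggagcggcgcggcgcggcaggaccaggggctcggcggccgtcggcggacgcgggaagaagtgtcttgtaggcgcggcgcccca

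The arrays were those of lung: surfactant gene Sftpc had signals of 10573 to 16252 and the type I cell gene Ager 4391 to 7788 over the 18 arrays. Median signals were 232.3 to 283.8. The 3′ to 5′ ratio of the actin control probe sets, which rises with RNA degradation, was highest in 3 arrays taken at 30 min, with 4.81 for left replicate 1, 2.30 for left replicate 3 and 2.93 for right replicate 3, and was at most 1.78 in the other 15. The mean of 8 lymphocyte markers that passed the filter (15 listed), on the log2 scale, was 8.13 to 8.88 in the 12 operated lungs and 8.91 to 9.24 in the controls. The mean of 7 neutrophil markers (13 listed) was 8.60 to 10.4 in the operated lungs and 8.16 to 8.81 in the controls, a difference of 0.68, 1.21, 0.69 and 1.21 in left 30 min, left 3 h, right 30 min and right 3 h lungs (exact permutation test, adjusted p = 0.085, 0.057, 0.085 and 0.057 over 48 tests). The MAS5 scaling left lower medians in operated arrays: once arrays were centred on their medians, the share of probe sets called that were higher was 53.1%, 56.5% and 55.8% in place of 36.6%, 45.4% and 38.5% in left 3 h, right 30 min and right 3 h lungs.

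Fkbp5, Klf9, Sgk1, Glul and Anxa1 were higher in each of the 12 operated lungs than in any of the 6 controls, which was so for 3.23% of the 7728 genes measured. Nr3c1 was lower than control in all 4 comparisons, and Tsc22d3 and Hsd11b1 passed only in the right lungs at 3 h. In limma fits over all probe sets, with a threshold of 0.05 on the Benjamini-Hochberg adjusted p, 5 members rose and 1 fell in left lungs at 30 min, where 18.2% of all genes passed (8.64% higher and 9.52% lower). The counts were 5 and 1 in left lungs at 3 h, where 37.6% of all genes passed (13.5% higher and 24.1% lower). They were 4 and 1 in right lungs at 30 min (12.3% of all, 5.93% higher and 6.33% lower) and 7 and 1 in right lungs at 3 h (20.4% of all, 7.75% higher and 12.6% lower). The 7 and 1 became 5 and 0 without right 3 h replicate 3. Fewer members were called in left lungs at 30 min with the 3 arrays of high actin ratio set aside. Only left replicate 2 of that time then remained, so this drop cannot be read as a loss of the differences. The median log2 difference of the 8 members was 0.54, 0.71, 0.44 and 0.49 in that order, beside -0.07, -0.12, -0.04 and -0.04 over all tested probe sets. With arrays centred on their medians, which takes up this shift, all of these calls held but that of Nr3c1 in left lungs at 30 min. The 4 comparisons share the 6 control lungs, and left and right lungs came from the same rats, so they do not repeat each other independently. In whole lung, more cells that express a gene and more RNA per cell cannot be told apart.

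**Figure D1:**
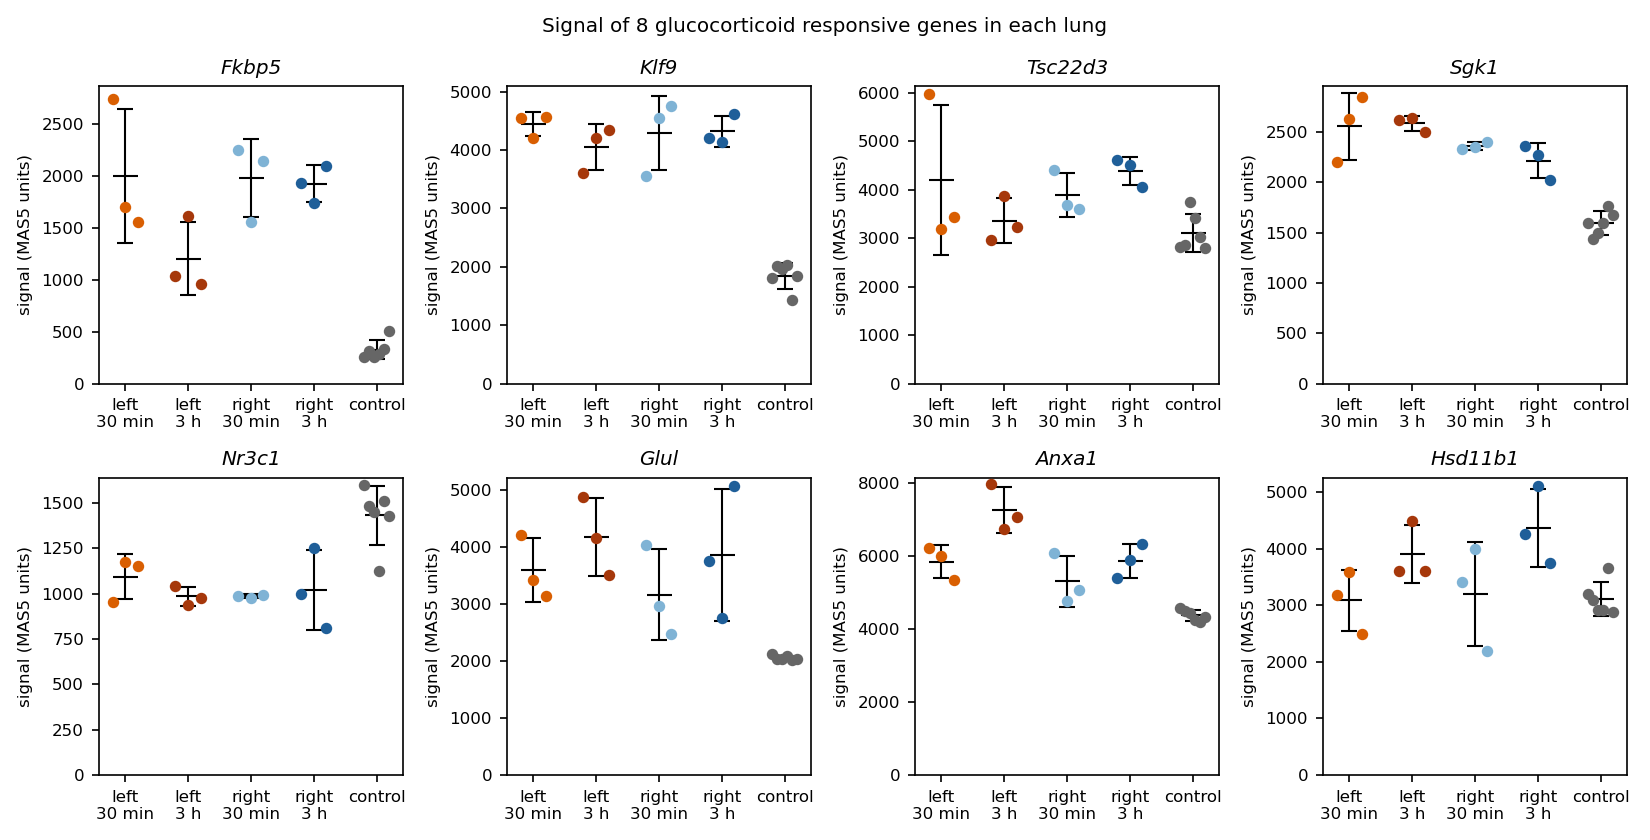
Signal of the 8 genes (vertical axis, MAS5 units from 0) in each lung by group (horizontal axis); points are single lungs, and bars are the mean and SD of 3 lungs or, for controls, 6. The operated lungs stand apart from the controls in Fkbp5, Klf9, Sgk1, Glul and Anxa1, and overlap them in Tsc22d3 and Hsd11b1.

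Fkbp5 encodes a co-chaperone that joins the receptor complex on Hsp90 and lowers its affinity for the hormone, so its induction is a known feedback on the receptor. Its signal was 2746, 1705 and 1560 in the left lungs of 30 min, and 1038, 1612 and 964 in those of 3 h. Right 30 min lungs had 2254, 1556 and 2148 and right 3 h lungs 1937, 1743 and 2099, against 255 to 507 with a median of 302 in the controls. Every operated lung lay above every control, and the left lungs at 3 h were the lowest operated group. The log2 difference from control was 2.52 ± 0.22 (SE, n = 3 against 6, limma adjusted p = 1.7e-06) in left lungs at 30 min and 1.81 ± 0.22 (adjusted p = 1.5e-05) at 3 h. In right lungs it was 2.54 ± 0.22 (adjusted p = 2e-06) at 30 min and 2.51 ± 0.22 (adjusted p = 1.4e-06) at 3 h. In folds of signal + 25, these stand for 5.75, 3.50, 5.80 and 5.69. The highest value came from the lung with the highest actin ratio, left replicate 1 at 30 min. With the 3 arrays of high ratio set aside, the 30 min difference was 2.34 in left and 2.47 in right lungs. Only replicate 2 of the left lungs at 30 min then remained, so the left value rests on a single array. The call in right lungs held.

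Klf9 encodes a zinc finger transcription factor, itself a target of the receptor, that feeds back on other targets. Its signal was 4547, 4206 and 4574 in the left lungs of 30 min, and 3608, 4212 and 4353 in those of 3 h. The right lungs had 3563, 4553 and 4750 at 30 min and 4201, 4142 and 4617 at 3 h, against 1439 to 2035 with a median of 1899 in the controls. No operated lung came near the controls, and the 4 operated groups overlapped each other. The log2 difference was 1.26, 1.13, 1.20 and 1.22 in left 30 min, left 3 h, right 30 min and right 3 h lungs (each ± 0.12, SE, limma adjusted p from 4.5e-06 to 1.2e-05), or 2.19-fold to 2.40-fold. A further probe set, 1387882_at, was under the filter of 173.6 in all 6 controls and above it in 9 operated lungs, so that it was tested only because it was high there. It averaged 168 and 333 in left lungs at 30 min and 3 h, 171 and 410 in right lungs, and 70.0 in controls. The third, 1390076_at, was not tested, at 66.2 to 114 on all arrays.

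Sgk1 encodes a kinase that promotes sodium uptake by holding back the ubiquitin ligase Nedd4l from the epithelial sodium channel. Its signal was 2197, 2627 and 2844 in the left lungs of 30 min, and 2619, 2640 and 2500 in those of 3 h. Right 30 min lungs had 2332, 2351 and 2403 and right 3 h lungs 2358, 2268 and 2023, against 1434 to 1769 with a median of 1598 in the controls. All operated lungs were above all controls by a smaller step than for Fkbp5 or Klf9. Log2 differences were 0.67, 0.69, 0.56 and 0.47 in left 30 min, left 3 h, right 30 min and right 3 h lungs (each ± 0.10, SE, limma adjusted p = 0.00022, 7.7e-05, 0.0013 and 0.0032), or 1.59-fold, 1.62-fold, 1.48-fold and 1.38-fold.

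Glul encodes glutamine synthetase, which makes glutamine from glutamate and ammonia and is known in rat lung as a glucocorticoid-induced enzyme. On its probe set of highest mean, 1367632_at, the signal was 4223, 3419 and 3149 in the left lungs of 30 min, and 4888, 4155 and 3519 in those of 3 h. The right lungs had 4045, 2976 and 2482 at 30 min and 3752, 2759 and 5074 at 3 h, against 2014 to 2122 with a median of 2042 in the controls. The controls lay within a narrow band and the operated lungs were scattered above it. The log2 difference was 0.79, 1.0, 0.59 and 0.86 in left 30 min, left 3 h, right 30 min and right 3 h lungs (each ± 0.17, SE, limma adjusted p = 0.004, 0.00032, 0.03 and 0.0022). In right lungs at 30 min the call ended without replicate 1 (0.40, adjusted p = 0.19), replicate 2 (0.62, adjusted p = 0.065), control 3 (0.59, adjusted p = 0.0501) or control 6 (0.59, adjusted p = 0.052).

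The 3 Glul probe sets differed from each other in left lungs at 30 min. 1367633_at averaged 813 ± 258 (SD, n = 3) there and 903 ± 106 (SD, n = 6) in controls, and 1386870_at averaged 1936 ± 489 and 1844 ± 199. Their log2 differences were -0.18 ± 0.18 and 0.05 ± 0.20 (SE, limma adjusted p = 0.52 and 0.89). In left lungs at 3 h they were 0.48 and 0.71 (adjusted p = 0.049 and 0.011), and in right lungs 0.48 and 0.69 at 30 min (adjusted p = 0.097 and 0.03) and 0.73 and 0.76 at 3 h (adjusted p = 0.0095 and 0.013). With the probe sets averaged, Glul differed from control by 0.22 in left lungs at 30 min (adjusted p = 0.36), so that call rests on 1 of the 3 probe sets. The lowest signals of 1367633_at and 1386870_at in that group were 626 in replicate 1 and 1581 in replicate 3, both arrays of high actin ratio. In replicate 2, with a ratio of 1.53, they were 1107 and 2494, above every control. In right replicate 3 at 30 min, also of high ratio (2.93), they were 1258 and 3202, above every control as well. Left minus right at 30 min, these probe sets were at -0.66 and -0.65 (adjusted p = 0.37 and 0.45), with all left lungs under all right lungs, and 1367632_at at 0.20. The part of RNA quality in this difference between probe sets was not tested.

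**Figure D2:**
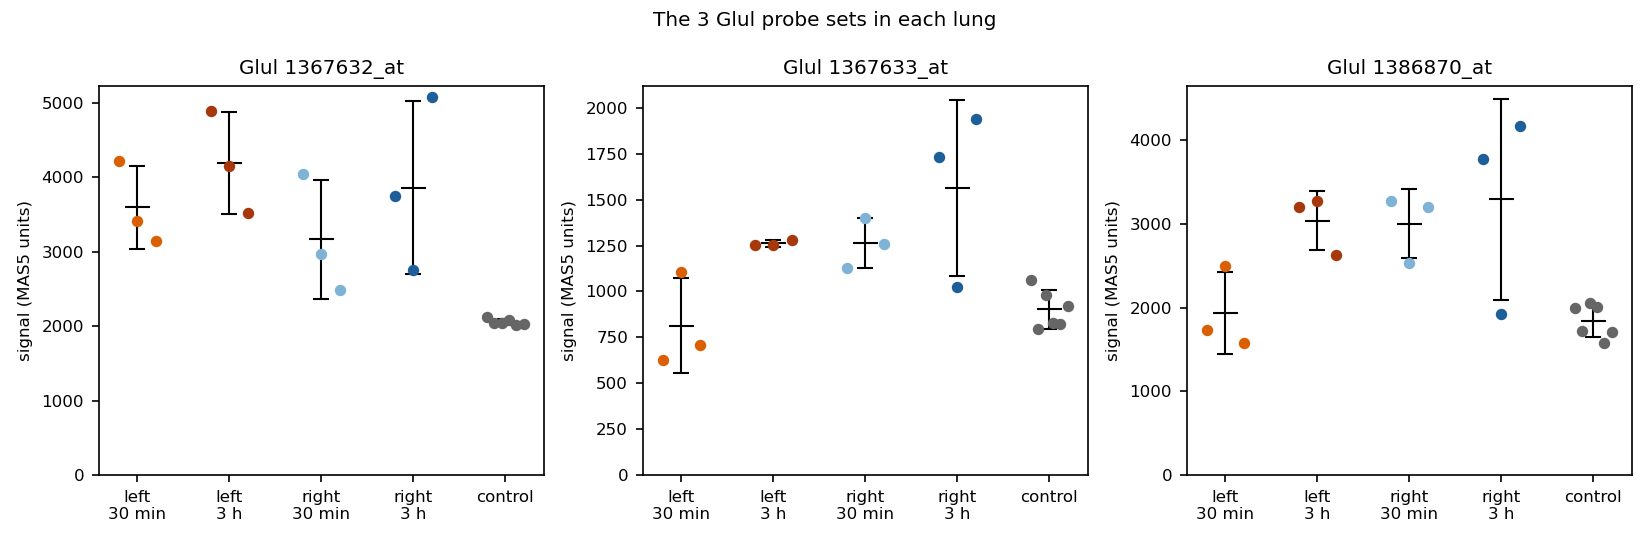
Signal of the 3 Glul probe sets (vertical axis, MAS5 units from 0) in each lung by group (horizontal axis); points are lungs, and bars are the mean and SD of 3 lungs or, for controls, 6. At 30 min in left lungs, 1367632_at was above all controls while 1367633_at and 1386870_at averaged 813 and 1936, close to the control means of 903 and 1844.

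Anxa1 encodes annexin A1, a phospholipid-binding protein that limits neutrophil recruitment through formyl peptide receptors and is abundant in neutrophils, macrophages and epithelium. Its signal was 6215, 6007 and 5331 in the left lungs of 30 min, and 7965, 6755 and 7059 in those of 3 h. Right 30 min lungs had 6095, 4768 and 5062 and right 3 h lungs 5403, 5884 and 6319, against 4194 to 4574 with a median of 4390 in the controls. All operated lungs were above all controls, and the left lungs at 3 h were above all other operated lungs. The log2 difference was 0.41, 0.72 and 0.42 in left 30 min, left 3 h and right 3 h lungs (each ± 0.10, SE, limma adjusted p = 0.0076, 5.4e-05 and 0.0071), and 0.27 ± 0.10 in right lungs at 30 min, where it missed the threshold (adjusted p = 0.084). Markers of these cell types moved in the same lungs, and their part in the Anxa1 values was not tested. The neutrophil marker mean was 1.21 above control in left lungs at 3 h, as given above. The mean of 7 monocyte and macrophage markers (12 listed) was 9.88 to 10.7 in operated lungs and 9.92 to 10.3 in controls, with differences of 0.07, 0.32, 0.13 and 0.49 in left 30 min, left 3 h, right 30 min and right 3 h lungs (exact permutation test, adjusted p = 0.65, 0.085, 0.38 and 0.057 over 48 tests). The mean of 9 alveolar type II markers (10 listed) was 11.4 to 12.4 in operated lungs and 12.4 to 12.5 in controls, with differences of -0.27, -0.68, -0.23 and -0.19 in that order (exact permutation test, adjusted p = 0.057 each). The call in left lungs at 30 min did not hold with the 3 arrays of high actin ratio set aside. Only left replicate 2 of that time then remained, and the difference was 0.45. The call in right lungs at 3 h ended under quantile normalization (0.25, adjusted p = 0.065).

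Nr3c1, the receptor gene, went the other way. Its signal was 955, 1178 and 1152 in the left lungs of 30 min, and 1043, 938 and 978 in those of 3 h. The right lungs had 989, 976 and 995 at 30 min and 999, 1251 and 810 at 3 h, against 1124 to 1601 with a median of 1468 in the controls. Of the 12 operated lungs 9 lay under every control, and the other 3 overlapped only the lowest control, replicate 4. All 12 did so in 3.7% of genes, a stricter measure that Nr3c1 did not meet, and the share of genes with 9 or more was not counted. The log2 differences of Nr3c1 were -0.38, -0.52, -0.52 and -0.49 in left 30 min, left 3 h, right 30 min and right 3 h lungs (each ± 0.13, SE, limma adjusted p = 0.048, 0.0049, 0.014 and 0.012). After median centring these were -0.34, -0.41, -0.47 and -0.41, and the first missed the threshold (adjusted p = 0.073). The left 30 min call also ended without any 1 of 8 of its 9 arrays (adjusted p = 0.067 to 0.22), holding only without control 4, and the right 3 h call ended without right 3 h replicate 3 (-0.34, adjusted p = 0.096). Lymphocytes are known to express the receptor. The lymphocyte marker mean was lower in the same lungs, with differences of -0.65, -0.74, -0.68 and -0.77 in the order above, each with an exact two-sided permutation p = 0.0238, the smallest that 3 against 6 arrays allow (adjusted p = 0.057 over 48 tests), and its part in the Nr3c1 values was not tested. A second Nr3c1 probe set, 1368222_at, was at 2.49 to 92.3 on all arrays and was not tested.

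Tsc22d3 encodes GILZ, a leucine zipper protein that binds NF-kB and AP-1 and is a widely used marker of glucocorticoid action. Its signal was 5970, 3193 and 3429 in the left lungs of 30 min, and 2969, 3869 and 3235 in those of 3 h. Right 30 min lungs had 4398, 3674 and 3590 and right 3 h lungs 4602, 4498 and 4061, against 2789 to 3745 with a median of 2937 in the controls. Only the right lungs at 3 h lay wholly above the controls, and the single highest value came from the lung with the highest actin ratio, left replicate 1 at 30 min. Log2 differences came to 0.38, 0.11 and 0.32 in left 30 min, left 3 h and right 30 min lungs (each ± 0.17, SE, limma adjusted p = 0.12, 0.62 and 0.21). In right lungs at 3 h it was 0.50 ± 0.17 (adjusted p = 0.039). That call ended without any 1 of 7 of its 9 arrays (adjusted p = 0.06 to 0.11), holding only without control 3 or control 4, and under quantile normalization (0.37, adjusted p = 0.11). Where the test was missed, the 95% intervals reached up to 0.73, 0.46 and 0.67.

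Hsd11b1 encodes 11-beta-hydroxysteroid dehydrogenase type 1, the enzyme that regenerates active glucocorticoid. Its signal was 3174, 3582 and 2500 in the left lungs of 30 min, and 3612, 4498 and 3607 in those of 3 h. The right lungs had 3408, 4001 and 2195 at 30 min and 4256, 5113 and 3741 at 3 h, against 2880 to 3664 with a median of 3007 in the controls. The 30 min groups spread to both sides of the controls, and only the right lungs at 3 h were wholly above them. The log2 difference was -0.02, 0.32 and 0.00 in left 30 min, left 3 h and right 30 min lungs (each ± 0.17, SE, limma adjusted p = 0.94, 0.14 and 0.998), and 0.48 ± 0.17 in right lungs at 3 h (adjusted p = 0.049). This call was at the threshold: it ended without any 1 of 8 of its 9 arrays (adjusted p = 0.052 to 0.21), holding only without control 5. It also ended with a pseudocount of 1, with no filter, under quantile normalization and with a replicate block, whose limits are given further below. With the cardiac muscle marker mean as a covariate it ended too (0.44, adjusted p = 0.15). That marker mean was 8.14 to 10.3 in right lungs at 3 h and 6.01 to 8.78 in controls (exact permutation test, adjusted p = 0.14 over 48 tests). The lowest signals at 30 min, 2500 in left replicate 3 and 2195 in right replicate 3, were both on arrays of high actin ratio. Left replicate 1, with the highest ratio (4.81), was at 3174, within the range of the controls. The part of RNA quality was not tested.

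**Figure D3:**
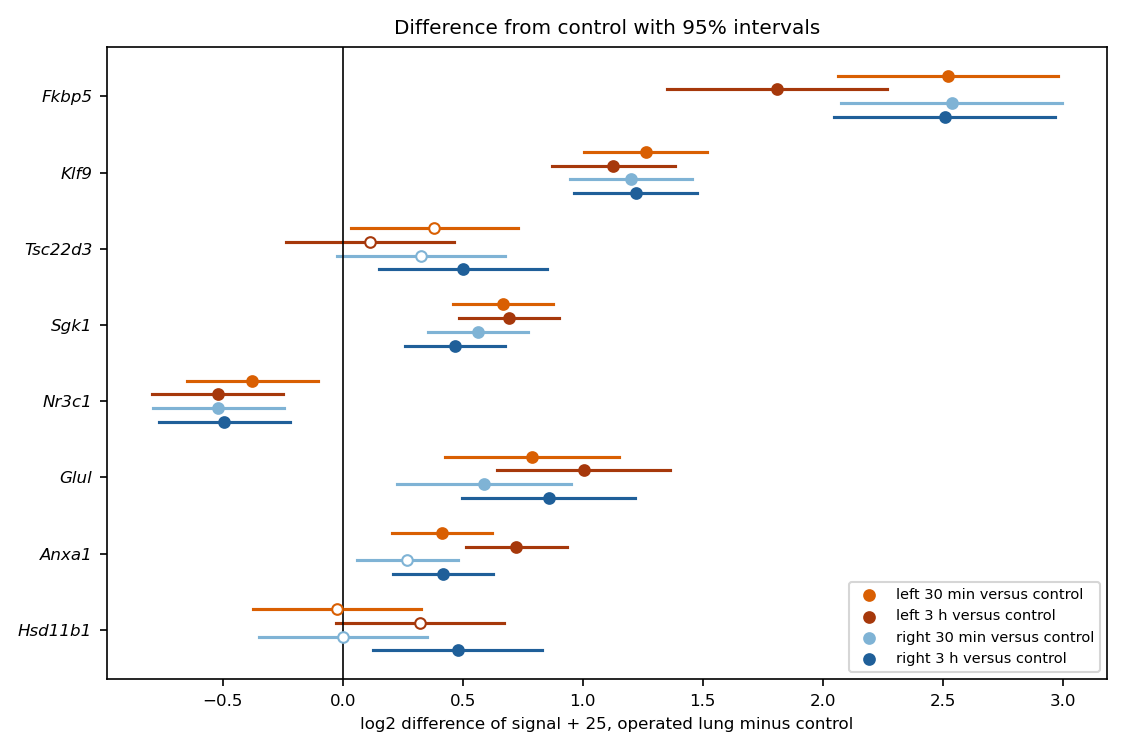
Log2 difference of signal + 25 from control (horizontal axis) for the 8 genes (vertical axis) in 4 operated groups, with limma 95% intervals as lines. Filled points passed the threshold and open points did not: Fkbp5 stands between 1.81 and 2.54, Klf9 between 1.13 and 1.26, and Nr3c1 between -0.52 and -0.38.

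Clamped and unclamped lungs were then set against each other, since both lungs of a rat shared the operation and the circulation. At 30 min 0 of 8 members passed (limma, 0 also at an unadjusted p under 0.05), where 0.0518% of all genes passed. Fkbp5 differed by -0.01 (95% interval -0.54 to 0.52), Klf9 by 0.06 (-0.24 to 0.36) and Sgk1 by 0.10 (-0.14 to 0.35), left minus right on the log2 scale. At 3 h 0 of 8 passed (limma, 2 at an unadjusted p under 0.05), where 2.37% of all genes passed. The 2 were Fkbp5 at -0.70 (95% interval -1.23 to -0.17, adjusted p = 0.15) and Anxa1 at 0.31 (0.06 to 0.55, adjusted p = 0.17). All 3 left lungs lay under all 3 right lungs in Fkbp5 and in Tsc22d3 (-0.39, -0.79 to 0.01), and above them in Anxa1 and in Sgk1 (0.22, -0.02 to 0.46). Groups of 3 did not overlap in this way in 9.50% of all genes with the left lungs lower and in 7.56% with the left lungs higher. The intervals leave room for left-right differences of such sizes in either gene, and a missed threshold does not show that the lungs were alike.

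**Figure D4:**
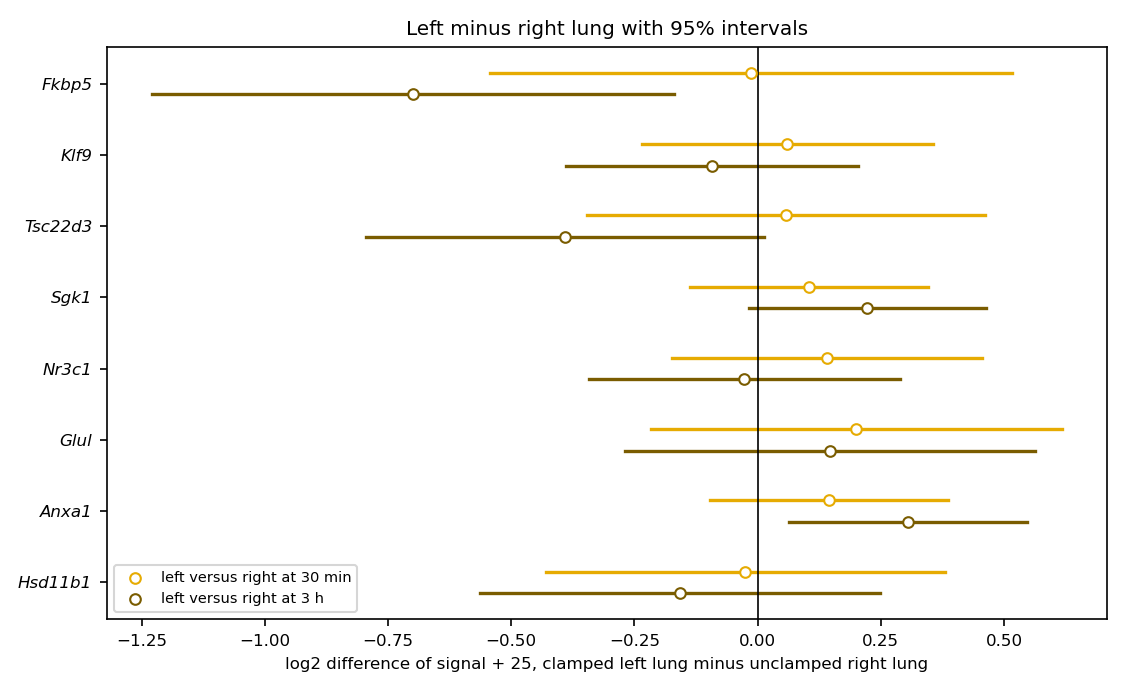
Log2 difference of signal + 25, clamped left minus unclamped right lung (horizontal axis), for the 8 genes (vertical axis) at 30 min and 3 h, with limma 95% intervals as lines and open points for differences that missed the threshold. At 3 h the interval of Fkbp5 runs from -1.23 to -0.17 and that of Anxa1 from 0.06 to 0.55.

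No member passed the test between the 2 times. In left lungs, 3 h against 30 min, 0 of 8 passed (limma, 2 at an unadjusted p under 0.05), where 3.07% of all genes passed. These 2 were Fkbp5 (-0.71, 95% interval -1.24 to -0.18, adjusted p = 0.11) and Anxa1 (0.31, 0.07 to 0.55, adjusted p = 0.13). In right lungs 0 of 8 passed (limma, 1 at an unadjusted p under 0.05), where 0.194% of all genes passed, and that 1 was Hsd11b1 (0.48, 0.07 to 0.88, adjusted p = 0.31). The other probe sets did not pass either. Glul 1367633_at and 1386870_at stood at 0.66 and 0.66 in left lungs (limma adjusted p = 0.087 and 0.11) and at 0.26 and 0.06 in right lungs. Klf9 1387882_at stood at 0.95 in left and 1.43 in right lungs (adjusted p = 0.22 and 0.18). The change of the left-right difference with time also gave 0 of 8 (limma, 0 at an unadjusted p under 0.05), where 0.233% of all genes passed, with Fkbp5 at -0.68 (-1.43 to 0.06).

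Of 18 receptor chaperones and coregulators, 0 rose and 1 fell in left lungs at 30 min, 3 and 5 at 3 h, 2 and 2 in right lungs at 30 min, and 0 and 5 at 3 h. These were, in left lungs at 3 h, 16.7% higher and 27.8% lower, close to the 13.5% and 24.1% of all genes, and in left lungs at 30 min the 5.56% lower stood beside 9.52% of all genes. In right lungs they were 11.1% in each direction at 30 min, beside 5.93% and 6.33% of all genes, and 27.8% lower at 3 h, beside 12.6%. The coactivators Ncoa3 and Med1 and the acetyltransferase Crebbp were among those that fell. Ncoa3 stood at -0.85 in left lungs at 3 h, -0.81 in right lungs at 30 min and -0.56 at 3 h. Fkbp4, which competes with Fkbp5 for the receptor complex and favours its move to the nucleus, did not pass in any comparison with control, at -0.42, 0.00, -0.15 and -0.24 (± 0.15, SE) in left 30 min, left 3 h, right 30 min and right 3 h lungs. The co-chaperones Stip1 (1.03 ± 0.13) and Ppid (0.88 ± 0.14) and the chaperone Hsp90ab1 (0.42 ± 0.14) rose in left lungs at 3 h (SE), and these 3 were also higher in left than in right lungs at that time, by 1.04, 0.73 and 0.66 (limma adjusted p = 0.0014, 0.032 and 0.04). In the same lungs the mineralocorticoid receptor gene Nr3c2, whose product also binds corticosterone, fell by 0.64 (± 0.17, SE, limma adjusted p = 0.0062).

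Among 5 other genes of corticosteroid metabolism, 0 passed in left lungs at 30 min, 2 rose and 1 fell at 3 h, and 1 and 2 fell in right lungs at 30 min and 3 h. Of all genes, 13.5% rose and 24.1% fell in left lungs at 3 h, and 6.33% and 12.6% fell in right lungs at 30 min and 3 h. A list of 5 genes is too short to be read against these shares. H6pd, which feeds Hsd11b1 with its cofactor, was at 0.47 ± 0.15 in left lungs at 3 h (SE, limma adjusted p = 0.025). The steroid hydroxylase gene Cyp3a9, 1 of the 2 that rose there, was under the filter of 173.6 in all 6 controls and was tested only because operated lungs were higher. It averaged 188 in left lungs at 3 h and 127 in controls. Without Cyp3a9, 1 of the other 4 genes rose there and 1 fell. Hsd11b2, which inactivates corticosterone, was at -0.45 ± 0.14 in right lungs at 3 h (adjusted p = 0.031). Akr1c14, a hydroxysteroid dehydrogenase, was at -1.29 in left lungs at 3 h, -0.77 in right lungs at 30 min and -1.37 at 3 h. Its averages at 3 h, 157 in left and 145 in right lungs, were under the filter of 173.6.

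Of 10 targets of Sgk1 or genes of sodium transport, 3 rose in left lungs at 30 min, 3 rose and 3 fell at 3 h, and 1 rose in right lungs at each time. Of all genes, 8.64%, 13.5%, 5.93% and 7.75% rose in left 30 min, left 3 h, right 30 min and right 3 h lungs, and 9.52%, 24.1%, 6.33% and 12.6% fell. The 30% of the list that fell in left lungs at 3 h was near the share of all genes. Among the 10 are 3 genes known as targets of the kinase and not for sodium transport: Foxo3, a transcription factor, rose in left lungs at 30 min (0.59), and in left lungs at 3 h Ndrg1 rose (1.21) and Ndrg2 fell (-0.57). The 1 in right lungs was the sodium pump subunit Atp1b1, which rose in all 4 comparisons, by 0.85, 0.57, 0.90 and 1.03 (± 0.11, SE) in left 30 min, left 3 h, right 30 min and right 3 h lungs. Nedd4l, the ligase that Sgk1 restrains, was 0.49 and 0.41 above control in left lungs at 30 min and 3 h (adjusted p = 0.035 and 0.0498). The channel subunit Scnn1a passed in none of these comparisons (0.37, -0.05, -0.01 and 0.18, ± 0.24).

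Of 9 relatives and partners of Anxa1, 1, 3, 2 and 2 rose in left 30 min, left 3 h, right 30 min and right 3 h lungs, and 0, 2, 1 and 1 fell. Of all genes, 8.64%, 13.5%, 5.93% and 7.75% rose and 9.52%, 24.1%, 6.33% and 12.6% fell in that order. S100a10 rose in all 4 comparisons (0.83, 1.25, 0.55 and 0.62), and Anxa4 fell in 3 of them (-0.48, -0.49 and -0.48 in left 3 h, right 30 min and right 3 h lungs). Anxa7 rose in right lungs at both times. In left lungs at 3 h Anxa6 and Anxa7 also passed, in opposite directions. Anxa2, the annexin that binds S100a10, rose in left lungs at 3 h (0.41, adjusted p = 0.045). Beside Glul, of 10 genes of glutamine handling 2, 4, 2 and 3 rose in left 30 min, left 3 h, right 30 min and right 3 h lungs, beside 8.64%, 13.5%, 5.93% and 7.75% of all genes. In each 0 fell, beside 9.52%, 24.1%, 6.33% and 12.6% of all genes. The amino acid exchanger Slc7a5 rose in all 4 (1.30, 1.82, 0.92 and 0.81), and the glutamine carrier Slc38a2 in the first 3 (0.64, 0.68 and 0.62). Among 21 relatives of the members by family, Klf2, a factor of quiescent endothelium, fell in all 4 comparisons (-1.0, -1.45, -1.08 and -1.41). In the order of the 4 comparisons 3, 1, 2 and 1 of the 21 rose (14.3%, 4.76%, 9.52% and 4.76%, beside 8.64%, 13.5%, 5.93% and 7.75% of all genes) and 2, 4, 1 and 5 fell (9.52%, 19.0%, 4.76% and 23.8%, beside 9.52%, 24.1%, 6.33% and 12.6%). Most of these shares were near those of all genes. Klf13, counted among those that rose in both 30 min groups, was under the filter in all 6 controls and was tested only because operated lungs were higher. Klf6 was at 0.84 and 0.87 in left 30 min and left 3 h lungs, and Klf10 at -0.72 and -0.57.

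Of 26 other genes known to be induced by glucocorticoids, Il1r2 was under the filter of 173.6 in all 6 controls, so that it was tested only because it was high in operated lungs, and it is left out of the counts. Of the other 25, 11 rose in left lungs at 30 min, 12 at 3 h, 8 in right lungs at 30 min and 9 at 3 h, and 0 fell in each. Over the 7601 genes above the filter in 1 or more controls, 8.05%, 12.9%, 5.47% and 7.37% rose in left 30 min, left 3 h, right 30 min and right 3 h lungs, and 9.68%, 24.5%, 6.43% and 12.8% fell. The median log2 difference of the 25 was 0.53, 0.62, 0.44 and 0.52 in that order, beside -0.06, -0.14, -0.04 and -0.05 over the 7601. Many of these genes also answer to cytokines, hypoxia or growth factors. The metallothionein gene Mt2A had the smallest adjusted p in each comparison, at 3.74, 4.17, 3.68 and 4.04 (± 0.32, SE) in left 30 min, left 3 h, right 30 min and right 3 h lungs. Il1r2, a decoy receptor for interleukin 1 that neutrophils carry, averaged 788, 2532, 534 and 1401 in these groups and 73.6 in controls. Nfkbia, the inhibitor of NF-kB, was at 1.13, 1.14, 1.02 and 1.02 (± 0.21). The EGF receptor inhibitor Errfi1 was at 2.00, 1.78, 1.51 and 1.39 (± 0.21, SE) in left 30 min, left 3 h, right 30 min and right 3 h lungs. The lipid kinase Sphk1 was at 1.87, 2.32 and 0.98 (± 0.29) in left 30 min, left 3 h and right 30 min lungs, and at 0.73 with adjusted p = 0.081 in right lungs at 3 h. The clock gene Per1 passed only in left lungs at 30 min (0.88 ± 0.28, limma adjusted p = 0.034). The phosphatase gene Dusp1 passed in 3 comparisons (0.83, 0.95 and 0.87 in left 30 min, left 3 h and right 3 h lungs, ± 0.25), and Zfp36, which destabilises cytokine mRNA, in left lungs at 30 min (1.37 ± 0.34, adjusted p = 0.0084). Between left and right lungs 0 of the 26, Il1r2 among them, passed at 30 min and Sphk1 alone passed at 3 h (1.59 higher in left). Of all genes, 0.0518% and 2.37% passed at these times.

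Among 19 inflammatory genes that glucocorticoids are known to repress, 8 were under the filter in all 6 controls and were tested only because operated lungs were high: Il6, Ccl2, Cxcl2, Tnf, Ptgs2, Sele, Cxcl10 and Mmp9. Of the other 11, 2 rose and 0 fell in left lungs at 30 min, 7 and 0 at 3 h, 2 and 1 in right lungs at 30 min, and 3 and 0 at 3 h. The 1 that fell was the adhesion molecule gene Icam1 (-0.45, limma adjusted p = 0.028). Of the 7601 genes above the filter in 1 or more controls, 8.05%, 12.9%, 5.47% and 7.37% rose in left 30 min, left 3 h, right 30 min and right 3 h lungs. In the same order 9.68%, 24.5%, 6.43% and 12.8% of them fell. The median log2 difference of the 11 was 0.10, 0.49, 0.46 and 0.31 in left 30 min, left 3 h, right 30 min and right 3 h lungs, beside the medians of the 7601 genes given above. The chemokine gene Cxcl1 rose in all 4 comparisons, at 2.74, 2.88, 2.56 and 1.48 (± 0.30, SE, limma adjusted p from 4e-06 to 0.0024). The chemokine gene Ccl2 averaged 1898, 1611, 1043 and 321 in the operated groups in that order and 93.3 in controls. The cytokine gene Il6 averaged 1157, 1675, 481 and 321 in them and 47.1 in controls. At 3 h, 5 of the 19 were higher in left than in right lungs, Ccl2 (2.02), Cxcl1 (1.40), Csf1 (1.16), Icam1 (0.62) and Vcam1 (0.61), and 0 lower. Of all genes, 2.37% passed in that comparison. The 19 include the 8 genes tested only because operated lungs were high, and Ccl2 is 1 of them, so this count is no test of the list.

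**Figure D5:**
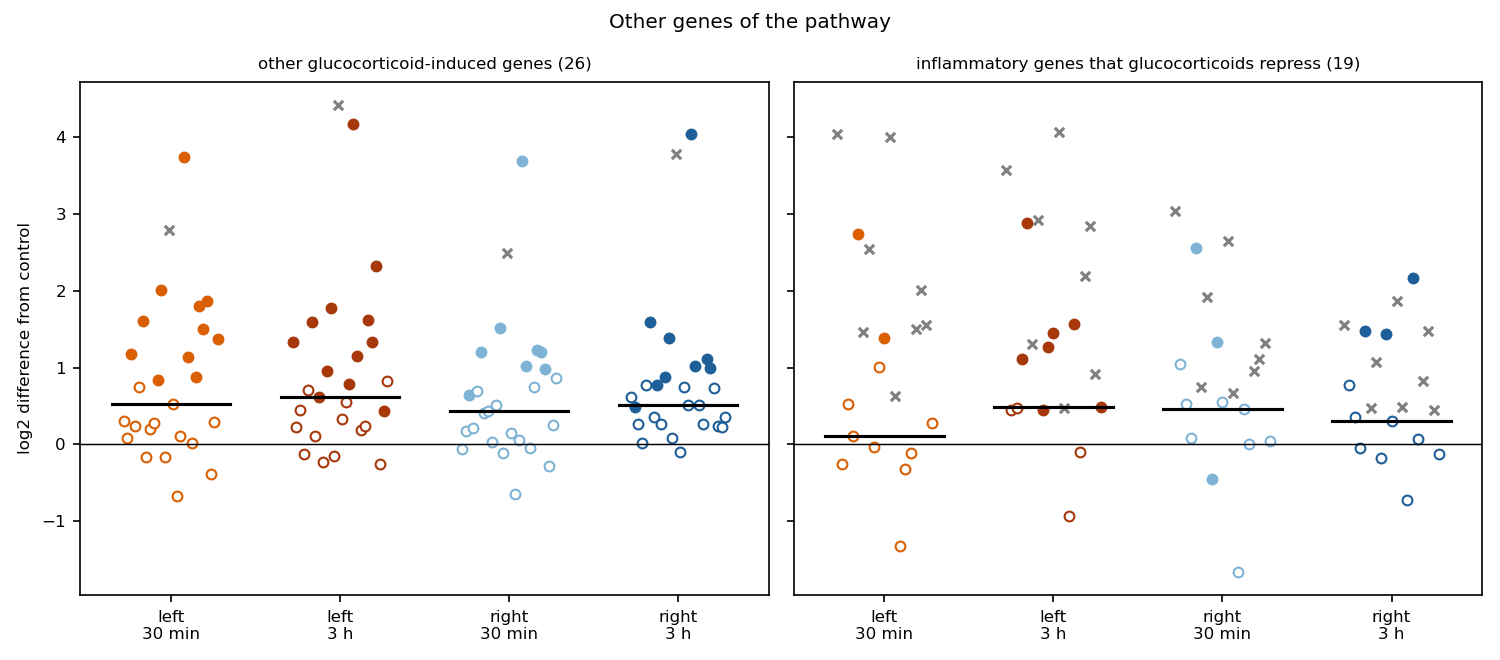
Log2 difference from control (vertical axis) of single genes in 4 operated groups (horizontal axis) for 26 other glucocorticoid-induced genes (left) and 19 inflammatory genes that glucocorticoids repress (right); filled points passed the threshold, open points did not, crosses are the 1 and 8 genes under the filter in all controls, and bars are medians over the rest. The medians lie between 0.44 and 0.62 on the left and between 0.10 and 0.49 on the right.

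The genes most like Fkbp5 over the 18 arrays were found by the root mean square difference of log2 values, each taken from the gene's own control mean. The nearest were the neutrophil protein S100a9 (0.67), tissue factor F3 (0.69), the survival factor Bcl2l1 (0.71), the focal adhesion protein Tes (0.71) and the kinase Map3k8 (0.76), against a median of 2.02 over all genes. In left lungs at 30 min and 3 h S100a9 stood at 2.11 and 2.52 above control, F3 at 2.11 and 2.59, Bcl2l1 at 1.90 and 1.43, Tes at 1.90 and 2.67 and Map3k8 at 1.92 and 2.13, where Fkbp5 was at 2.52 and 1.81. S100a9 is one of the neutrophil markers. Nearest to Nr3c1 were Limd2 (0.16), Banf1 (0.16), Phip (0.16), Comtd1 (0.16) and Fxyd6 (0.16), against a median of 0.45.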

How the data were processed

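Signals were read from the deposited value table of 18 arrays. They are probe set intensities on a linear scale that the authors made with MAS5 (per the submitters' processing notes, with no version stated in what was used here), and each array had been scaled to a 2% trimmed mean of 500.1. GeneSpring 7.2 is named in the series' design text for later analysis. After removal of 57 control probe sets, values were analysed as log2(signal + 25), and probe sets with signals over 173.6 on 3 or more arrays were tested. This limit is the 40th percentile of all signals. A gene could pass it on control arrays alone, and genes that fell were not marked for this. Fold changes on this scale understate those of genes of low signal. Symbols came from the platform annotation and were checked through Entrez identifiers against RefSeq, which changed 0. Of the probe sets 12783 had 1 symbol, 312 had several and 2771 had none.

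Groups were compared with limma 3.58.1 in R 4.3.3 (lmFit and eBayes, 5 group means over all 18 arrays, two-sided), with Benjamini-Hochberg adjustment over all tested probe sets in each of 9 comparisons. No replicate pairing was used: deviations of same-numbered left and right lungs from their group means correlated at 0.12, 0.31 and 0.15 at 30 min but at -0.17, 0.07 and -0.15 at 3 h, and the labels do not say that numbers mark rats. On simulated arrays with known changes, limma called 88.8% of 2-fold and 99.0% of 4-fold changes for left 3 h lungs against control. Of all its calls there, 4.28% were false. Left against right at 3 h, it called 80% of 2-fold and 99% of 4-fold changes, with 5.06% false among calls. In the test of whether left minus right shifted with time, it called 52.2% of 2-fold and 92.8% of 4-fold changes. Among calls in that test, 5.61% were false. Marker means and the actin ratio were tested by exact permutation (Python 3.11.15, scipy 1.17.1). Values are only as precise as the few arrays of each group allow. The limma p-values set a difference against an estimate of the spread within groups that is shared by all 5 groups. Lungs were treated there as independent, although left and right lungs came from the same rats. The permutation p-values come from regrouping the arrays and use no such estimate.

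The members, the lists and the tests were chosen with earlier results of these data known. All 8 members are named. From each list and comparison the 4 passing genes of smallest adjusted p, or all where no more than 5 passed, could be named, as well as close partners or relatives of the members. List counts leave the members out. Other pseudocounts, filters, scalings, fits and left-out arrays were tried as alternatives.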

Additional observations from a re-analysis of the deposited data

Results flagged for a closer look

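In the 6 control lungs, 3 of the 8 genes had a single array that stood apart from the other 5 by a gap above Dixon's 95% critical share of the range, taken on log2(signal + 25). Fkbp5 was high in control 6, with a gap of 0.627 of the range (signal 507, against 255 to 331 in the other controls). Klf9 was low in control 5, with a gap of 0.659 (signal 1439, against 1808 to 2035), which on linear signals was 0.620 and under the critical share. Nr3c1 was low in control 4, with a gap of 0.675 (signal 1124, against 1428 to 1601). Chance gives about 1 such array in 20 groups, and the 3 arrays are different ones. Leaving each of them out ended no call of that gene.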

How the results depend on the processing

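Of 25 member differences past the threshold, 17 remained so under every alternative, among them all those of Fkbp5, Klf9 and Sgk1, and 0 of their 525 alternative values changed sign. The other 8 were those of Nr3c1, Glul and Anxa1 in left lungs at 30 min, Glul in right lungs at 30 min and Anxa1, Hsd11b1, Nr3c1 and Tsc22d3 in right lungs at 3 h, whose 52 lost calls kept their direction, and the cause was not tested. Members called numbered 6 in left lungs at 30 min, and 3 without the 3 arrays of highest actin ratio, where 1 left array remained and was assumed to vary like the other groups. They numbered 8 in right lungs at 3 h, and 5 with quantile normalization, 5 with a replicate block and 5 without right 3 h replicate 3. Leaving out 1 array at a time gave 5 to 6 in left 30 min, 6 in left 3 h, 4 to 5 in right 30 min and 5 to 7 in right 3 h lungs, and 0 in the other 5 comparisons. The replicate block ended the calls of Anxa1 (0.37, adjusted p = 0.091) and Nr3c1 (-0.46, 0.075) in left lungs at 30 min, Glul in right lungs at 30 min (0.58, 0.14), and Anxa1 (0.38, 0.088), Hsd11b1 (0.49, 0.057) and Tsc22d3 (0.49, 0.17) in right lungs at 3 h. It changed no other member call. Left against right, where the block joined same-numbered lungs of a time, 0 members were still called. Against control and between times it joined all arrays of a number, although controls and lungs of different times came from different rats. Controls 4, 5 and 6 then had no partner and did not bear on the differences from control. The calls lost under this block are therefore no test of pairing. Of 47 differences that missed the threshold, 2 passed it under 1 alternative each: Hsd11b1 in left lungs at 3 h with only the groups compared (0.32, limma adjusted p = 0.039) and Anxa1 in right lungs at 30 min with a mean-variance trend (0.27, 0.044).

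Probe sets called over the whole array numbered 2099, 3977, 1407 and 2255 in left 30 min, left 3 h, right 30 min and right 3 h lungs against control, and 637 to 3020, 2561 to 4507, 415 to 1904 and 952 to 2753 over the alternatives that left out no single array. Left out singly, arrays gave 1309 to 1913, 2299 to 4052, 811 to 1190 and 1417 to 1981. Left against right, 4 at 30 min became 0 to 9 (1 to 16 without single arrays) and 240 at 3 h became 15 to 282 (35 to 461).

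Of the 915 alternative values of uncalled differences, 62 had the other sign, all close to 0 or of wide error. With arrays centred on their median they were Hsd11b1 0.015 in left 30 min versus control, Nr3c1 0.0054 in left versus right at 3 h, Fkbp5 0.0019 in right 3 h versus right 30 min. Without the 3 arrays of highest actin ratio they were Hsd11b1 0.21 in left 30 min versus control, Glul -0.021 and Tsc22d3 -0.33 in left versus right at 30 min, Sgk1 -0.023 and Tsc22d3 0.063 in left 3 h versus left 30 min, Fkbp5 0.036 in right 3 h versus right 30 min, Glul 0.17 in the change of the left-right difference. With the actin ratio as a covariate they were Hsd11b1 0.21 in left 30 min versus control, Hsd11b1 0.10, Klf9 -0.0039, Tsc22d3 -0.090 in left versus right at 30 min, Sgk1 -0.065 in left 3 h versus left 30 min, Fkbp5 0.047 in right 3 h versus right 30 min. With quantile normalization they were Tsc22d3 -0.046 in left 3 h versus control, Hsd11b1 -0.074 in right 30 min versus control, Sgk1 -0.047 in left 3 h versus left 30 min, Klf9 -0.060 in right 3 h versus right 30 min. With the cardiac marker mean as a covariate they were Hsd11b1 -0.0055 in right 30 min versus control, Hsd11b1 0.0016 in left versus right at 30 min, Nr3c1 0.043 in left versus right at 3 h, Fkbp5 0.12 and Nr3c1 -0.0055 in right 3 h versus right 30 min. With the tested probe sets of a gene averaged they were Glul -0.37 in left versus right at 30 min, Glul -0.051 in left versus right at 3 h, Klf9 0.41 in left 3 h versus left 30 min, Glul 0.32 in the change of the left-right difference. Leaving out 1 array at a time gave Hsd11b1 -0.14 to 0.12 in left 30 min versus control. It gave Hsd11b1 -0.18 to 0.25 in right 30 min versus control. It gave Fkbp5 -0.26 to 0.14, Hsd11b1 -0.27 to 0.16, Klf9 -0.067 to 0.14, Tsc22d3 -0.22 to 0.22 in left versus right at 30 min. It gave Glul -0.072 to 0.36, Nr3c1 -0.18 to 0.13 in left versus right at 3 h. It gave Sgk1 -0.080 to 0.10, Tsc22d3 -0.44 to 0.012 in left 3 h versus left 30 min. It gave Fkbp5 -0.19 to 0.070, Klf9 -0.11 to 0.099, Nr3c1 -0.13 to 0.18 in right 3 h versus right 30 min. It gave Glul -0.27 to 0.16, Hsd11b1 -0.31 to 0.12 in the change of the left-right difference. With 3 arrays a group, a difference smaller than about the half-width of its 95% interval could not be told from 0.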
